A study of Mus musculus with 16 samples.

Results

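Expression of 10 genes of the ATF4 pathway and of serine synthesis (Atf4, Atf5, Ddit3, Trib3, Chac1, Asns, Sesn2, Phgdh, Psat1 and Psph) was examined in mouse liver. They were taken as every probe annotated with one of these symbols, which gave 14 probes for 10 of the 16593 genes named on the arrays. Of these genes, 8 were bright enough to be tested, detected over negative controls (p under 0.05) by 4 or more of the 16 arrays, and Phgdh and Psph were not. The samples were livers of 16 male C57BL/6 mice in 4 groups of 4, called biological replicates by the labels, with no age given. Garlic oil mice ate the Lieber-DeCarli ethanol liquid diet and received 50 mg/kg of garlic oil, a mixture of allyl sulfides. DADS mice ate the same ethanol diet and received 15 mg/kg of diallyl disulfide, a sulfur compound of garlic. Alcohol mice ate the ethanol diet with vehicle alone, a model of alcoholic fatty liver, and Control mice were pair-fed the liquid control diet with the same vehicle. The vehicle, 0.1 ml of olive oil, was given to all 4 groups by gavage each day over 4 weeks.

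ATF4 is a transcription factor of the integrated stress response. When kinases phosphorylate the translation factor eIF2, most protein synthesis slows while the Atf4 mRNA is translated more, so the amount of this mRNA need not follow that of the protein. ATF4, often paired with a C/EBP protein, activates genes for amino acid synthesis and transport and genes that feed back on the response. Among its known targets are asparagine synthetase and the enzymes that turn 3-phosphoglycerate into serine, PHGDH, PSAT1 and PSPH, which act in that order. In rat liver, PHGDH is known to be low on a protein-rich diet.

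Promoter windows of 300 bases (250 bases before to 50 bases after the gene start, RefSeq, build GRCm38.p6) were found for all 10 genes, 12 windows in all. They were searched on both strands for TGATGNAA, the core of the element that ATF4 and C/EBP proteins are known to bind. Of the 12 windows, 3 held it, those of Asns, Chac1 and Trib3, against 3.97% of 32851 mouse windows. This is a description with no test, of genes chosen as members of the pathway. The windows of these 3 genes are shown in the sense of each gene. Of the 3, Chac1 and Asns carry calls described below and Trib3 carries none. The other called genes, Atf4, Atf5 and Psat1, had no match. Capitals mark the match. In Asns (chr6:7693160-7693459, minus strand) the match began 23 bases upstream of the start. In Chac1 (chr2:119350992-119351291, plus strand) it lay on the opposite strand, beginning 193 bases upstream. In Trib3 (chr2:152344011-152344310, minus strand) it lay on the opposite strand from base 15 of the transcript. No match was present in the windows of Atf4, Atf5, Ddit3, Sesn2, Phgdh, Psat1 and Psph.
Asns: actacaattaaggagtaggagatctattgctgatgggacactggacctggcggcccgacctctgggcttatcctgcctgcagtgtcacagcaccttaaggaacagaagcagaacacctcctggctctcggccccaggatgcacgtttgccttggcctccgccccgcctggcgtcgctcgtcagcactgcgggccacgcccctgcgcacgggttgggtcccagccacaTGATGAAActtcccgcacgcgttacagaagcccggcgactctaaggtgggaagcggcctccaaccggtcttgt
Chac1: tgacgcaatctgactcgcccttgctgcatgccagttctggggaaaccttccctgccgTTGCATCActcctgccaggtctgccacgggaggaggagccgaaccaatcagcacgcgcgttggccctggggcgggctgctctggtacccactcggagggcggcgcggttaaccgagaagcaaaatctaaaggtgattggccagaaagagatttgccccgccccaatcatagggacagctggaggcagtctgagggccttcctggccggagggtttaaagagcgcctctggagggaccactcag
Trib3: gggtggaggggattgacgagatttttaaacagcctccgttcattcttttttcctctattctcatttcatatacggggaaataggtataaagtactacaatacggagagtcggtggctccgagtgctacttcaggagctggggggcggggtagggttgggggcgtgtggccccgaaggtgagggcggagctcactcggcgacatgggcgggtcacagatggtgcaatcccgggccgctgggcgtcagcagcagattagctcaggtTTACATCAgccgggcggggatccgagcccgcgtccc

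Arrays detected between 10631 and 11526 probes each, and arrays of a group correlated at 0.973 to 0.993. Garlic oil and DADS arrays shared 1 chip, and Alcohol and Control arrays the other, per the identifiers of the array files. Alcohol minus Control and Garlic oil minus DADS therefore lay within a chip, while in every other comparison group and chip cannot be told apart. Within a chip, group and position cannot be told apart either. All 7 hepatocyte markers were detected on every array. The liver labelled Alcohol 1 stood apart: all 18 measured pancreatic acinar genes were detected in it, with a summed level of 732513 against at most 2763 on any other array, and 14 of them were detected on no other array. Summed over 2 erythroid genes, the level was 46708 to 54090 in Garlic oil, 14215 to 20175 in DADS, 17052 to 28208 in Alcohol and 29726 to 32073 in Control livers. Summed over 9 Kupffer cell and macrophage genes, 8 of them detected on every array, it was 7592 to 10824 in Garlic oil, 2811 to 7217 in DADS, 8215 to 9758 in Alcohol and 7139 to 9205 in Control livers. The part of these markers in the results below was not tested. In whole liver, fewer cells of a type and less RNA per cell cannot be told apart.

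**Figure D1:**
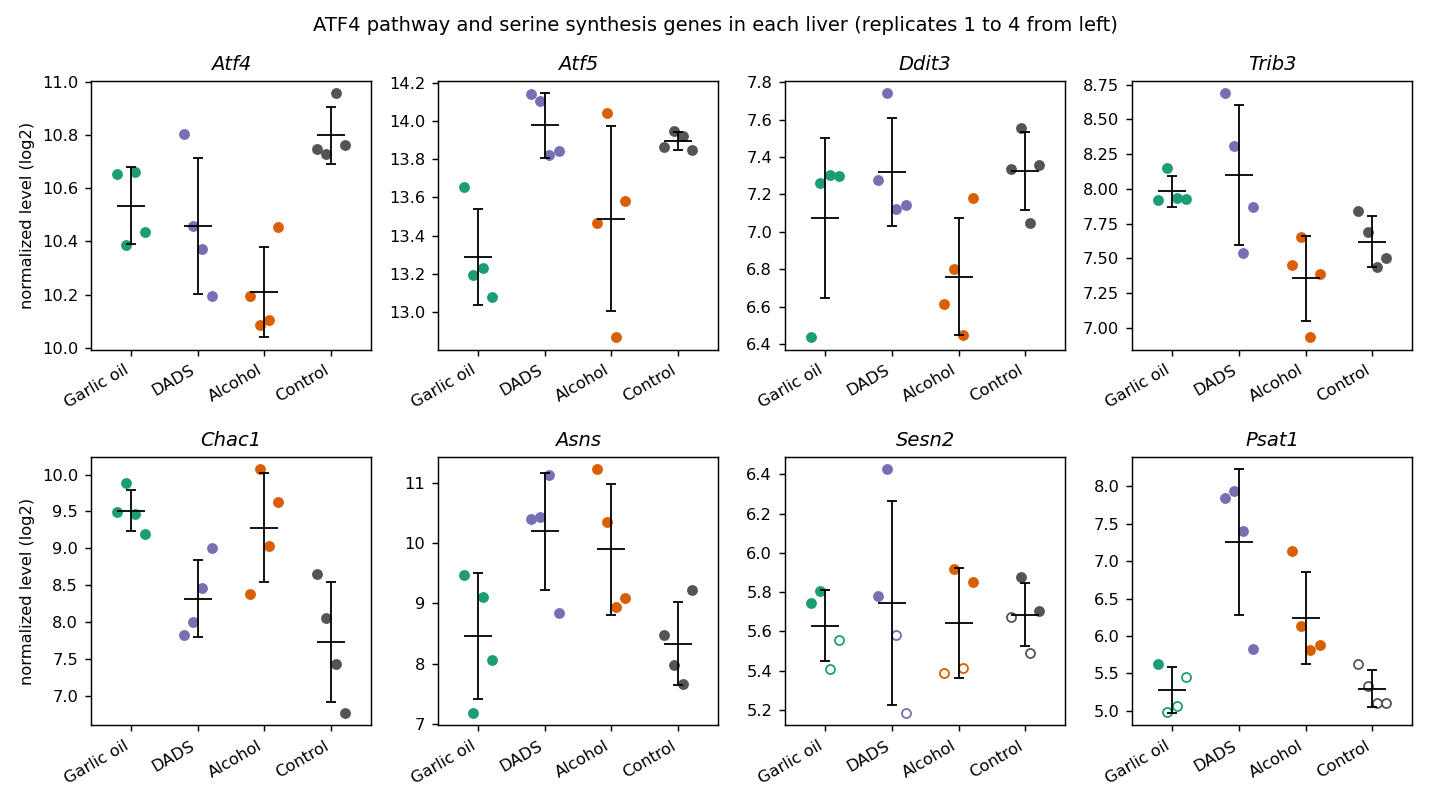
Normalized log2 level (y axis) of the 8 tested genes in each liver by group (x axis). Points are livers, filled where the probe was detected and open where it was not, and bars are the group mean and SD (n = 4). Psat1 was detected in all DADS and Alcohol livers and in no Control liver, and Chac1 lay above every Control liver in all Garlic oil livers.

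Against Control livers, Alcohol livers had less Atf4 mRNA and more Chac1 mRNA. Of the 8 tested genes, 1 fell (Atf4) and 1 rose (Chac1), where 1.63% of all 8386 tested genes fell and 1.94% rose in the same comparison. In DADS minus Alcohol and in Garlic oil minus Alcohol none of the 8 passed the limma test at an adjusted p under 0.05. There 5 and 4 of them had an unadjusted p under 0.05, beside 1541 and 1550 of all genes. In Alcohol minus Control 6 of the 8 did (all genes 1515), and in Garlic oil minus DADS 4 did (all genes 1408). In DADS minus Control 4 did (all genes 2597), and in Garlic oil minus Control 2 did (all genes 2727). Among all genes, 1.23% rose and 1.61% fell in DADS minus Alcohol, and 0.692% rose and 1.32% fell in Garlic oil minus Alcohol. Between the treatments, whose doses differed, Psat1 fell in Garlic oil relative to DADS livers, where 0.739% of all genes rose and 1.11% fell. Against Control, 2 genes rose in DADS livers (Asns and Psat1; background 8.48% higher, 7.44% lower). In Garlic oil livers Chac1 rose and Atf5 fell relative to Control (background 8.56% higher, 9.29% lower).

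The median log2 change of the 8 genes was -0.15 in Alcohol minus Control, where the median of all genes was -0.006. It was 0.40 in DADS minus Alcohol (all genes 0.016), with 7 of 8 changes above 0, and 0.11 in Garlic oil minus Alcohol (all genes -0.026). Garlic oil minus DADS gave -0.18 (all genes -0.031), DADS minus Control 0.28 (all genes -0.001) and Garlic oil minus Control -0.04 (all genes -0.044). These comparisons share groups of livers, so their values are not independent of each other.

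**Figure D2:**
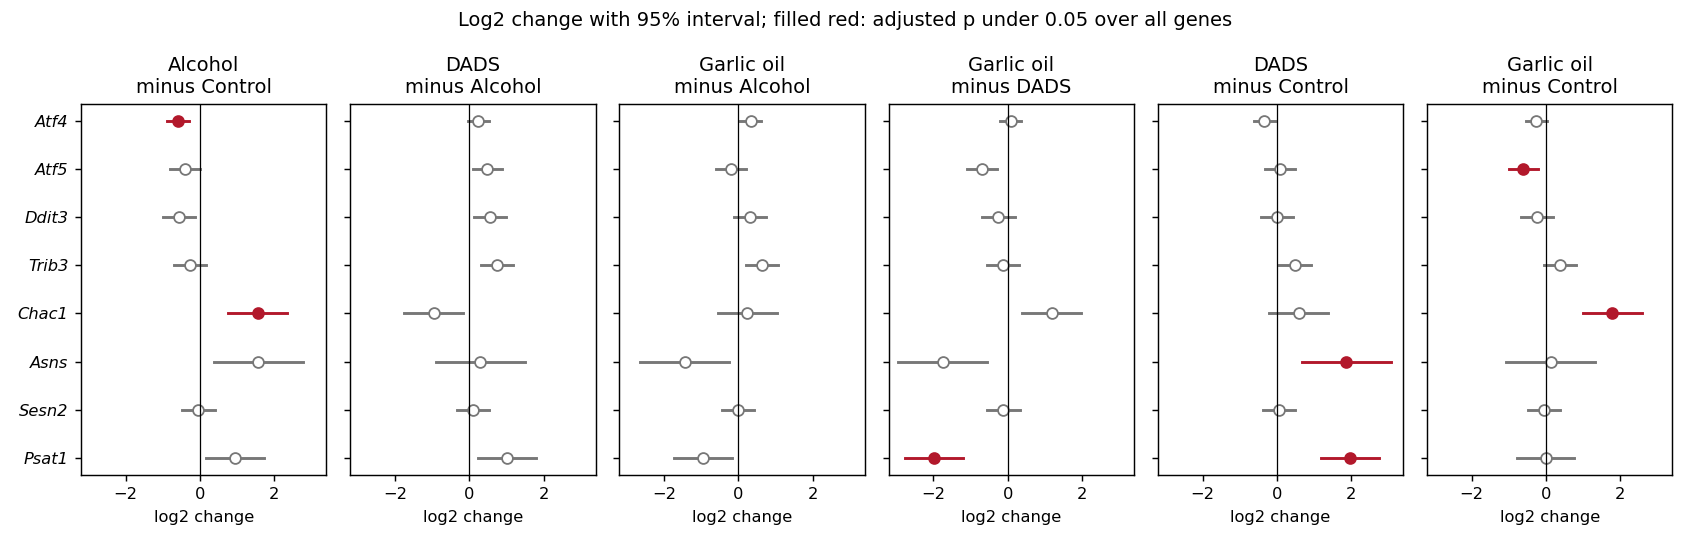
Log2 change with its 95% interval (x axis) of the 8 tested genes (y axis) in the 6 comparisons, from 1 limma fit of 16 arrays. Filled red points passed an adjusted p under 0.05 over 8386 genes: 2 in Alcohol minus Control, 1 in Garlic oil minus DADS, 2 in DADS minus Control and 2 in Garlic oil minus Control.

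Atf4, which encodes the central transcription factor of the pathway, was lowest in Alcohol livers. Its raw signal was 1815.7, 1346.7, 1889 and 1274.7 in Garlic oil livers, 2011, 1899.7, 1540.2 and 1253.6 in DADS livers, 1180.5, 845.5, 1278.8 and 1563.6 in Alcohol livers, and 1436.9, 1577.6, 2070.5 and 1715.9 in Control livers. After normalization every Alcohol liver (log2 levels 10.09 to 10.45) lay below every Control liver (10.73 to 10.96). Atf4 fell by 0.59 ± 0.14 (SE) on the log2 scale in Alcohol relative to Control livers, 1.51-fold, with an adjusted p of 0.022. From low to high, the group means were 10.21 ± 0.17 in Alcohol, 10.46 ± 0.26 in DADS, 10.54 ± 0.14 in Garlic oil and 10.80 ± 0.11 in Control livers (SD, n = 4). None of these neighbours differed past the threshold (DADS minus Alcohol adjusted p = 0.351, Garlic oil minus DADS 0.826, Garlic oil minus Control 0.188), although all Garlic oil livers lay below all Control livers after normalization. The Alcohol minus Control call was lost when Control 1, Control 2, Control 3 or Alcohol 3 was left out (adjusted p up to 0.0774), and without Alcohol 1 the change was -0.59 (adjusted p = 0.0485). Without DADS 1, Atf4 also passed in DADS minus Control (-0.46, adjusted p = 0.0312), against -0.34 and 0.0962 with all livers.

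Atf5 encodes a related transcription factor that is likewise translated under eIF2 phosphorylation and is abundant in liver. Its raw signal was 13588.6, 9275.1, 11349.4 and 8470.2 in Garlic oil livers, 17966.6, 21132.7, 16962.6 and 15115 in DADS livers, 11201.5, 12281.9, 7763.3 and 12425.6 in Alcohol livers, and 12620.5, 14582, 15756.4 and 14189.4 in Control livers. In raw signal every Alcohol liver lay below every Control liver, and every Garlic oil liver below every DADS liver. After normalization Alcohol 2 (14.04) lay above all Control livers (13.85 to 13.95), while the other 3 Alcohol livers lay below them. Atf5 fell by 0.61 ± 0.19 (SE) in Garlic oil relative to Control livers, 1.52-fold (adjusted p = 0.0359). All Garlic oil livers lay below all Control livers after normalization, while in raw signal Garlic oil 1 lay above Control 1. In Garlic oil minus DADS, within 1 chip, the change was -0.69 ± 0.19 (SE) with an adjusted p of 0.0703, and the groups did not overlap. The mean level was 13.29 ± 0.25 in Garlic oil, 13.98 ± 0.17 in DADS, 13.49 ± 0.49 in Alcohol and 13.90 ± 0.05 in Control livers (SD, n = 4). Between neighbours in the order of levels, Garlic oil and Alcohol (adjusted p = 0.608), Alcohol and Control (0.266), and DADS and Control (0.812) did not differ past the threshold. The call against Control was lost without any one of the 4 Control livers or of Garlic oil 2, 3 and 4 (adjusted p up to 0.0972). Garlic oil minus DADS passed without Alcohol 2, Alcohol 3 or Garlic oil 1 (lowest adjusted p 0.0313).

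Ddit3 encodes CHOP, a C/EBP-family factor induced by ATF4 that is linked to cell death under lasting stress. Both of its probes were detected on all 16 arrays, at dim raw signals between 137.5 and 358.4. On probe ILMN_2927373 the level was 7.08 ± 0.43 in Garlic oil, 7.32 ± 0.29 in DADS, 6.76 ± 0.32 in Alcohol and 7.32 ± 0.21 in Control livers (SD, n = 4). Alcohol minus Control was -0.56 ± 0.21 (SE), with an adjusted p of 0.144, and DADS minus Alcohol was 0.56 ± 0.21, with an adjusted p of 0.148. On probe ILMN_2652909 the raw signal was 137.5, 152.8, 189.8 and 169.6 in Garlic oil livers, 253.2, 248.9, 223.1 and 187 in DADS livers, 139.3, 150.3, 154.2 and 174.1 in Alcohol livers, and 213.8, 222.3, 166.2 and 227.6 in Control livers. On this probe all DADS livers were above all Alcohol livers (0.79 ± 0.24 SE, adjusted p = 0.0792). After normalization all Garlic oil livers were below all DADS livers there (-0.59 ± 0.24 SE, adjusted p = 0.218), while in raw signal Garlic oil 3 lay just above DADS 4. Alcohol minus Control came closest to the threshold on it (-0.88 ± 0.24 SE, adjusted p = 0.0503), and Garlic oil minus Control was -0.67 ± 0.24 (adjusted p = 0.0568). No Ddit3 comparison passed on either probe. The 2 probes had the same sign in all 6 comparisons, which share groups and were read on the same livers. DADS minus Control was smaller than its SE on both (-0.003 and -0.083).

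Trib3 encodes a pseudokinase that is induced by ATF4 and CHOP and that restrains ATF4 in return. Its raw signal was 333.6, 335.3, 355.6 and 277.5 in Garlic oil livers, 532.3, 491.9, 276.4 and 290 in DADS livers, 254.2, 210, 212.9 and 259.9 in Alcohol livers, and 251.9, 251.2, 243.3 and 235.3 in Control livers. DADS 1 and DADS 2 were the highest livers, while DADS 3 and DADS 4 were near the other groups. The mean level was 7.98 ± 0.11 in Garlic oil, 8.10 ± 0.51 in DADS, 7.36 ± 0.31 in Alcohol and 7.62 ± 0.18 in Control livers (SD, n = 4). DADS minus Alcohol was 0.74 ± 0.20 (SE), with an adjusted p of 0.057. Garlic oil minus Alcohol was 0.63 ± 0.20, with an adjusted p of 0.116, and every Garlic oil liver was above every Alcohol liver and every Control liver. Neighbours in the order of levels did not differ past the threshold (Alcohol minus Control adjusted p = 0.538, Garlic oil minus Control 0.229, Garlic oil minus DADS 0.82). Without DADS 3, DADS minus Alcohol passed (0.93, adjusted p = 0.0251), as did DADS minus Control (0.67, adjusted p = 0.0316).

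Chac1 encodes an enzyme that breaks down glutathione and is known as a target of ATF4. Its raw signal was 851.3, 953.9, 883.6 and 575 in Garlic oil livers, 326.2, 414.4, 465.9 and 579.2 in DADS livers, 402.9, 839.7, 640.9 and 931.5 in Alcohol livers, and 383.4, 304.1, 242.9 and 171.9 in Control livers. Garlic oil livers were all high, and Alcohol livers were high except Alcohol 1, whose normalized level (8.38) lay below that of Control 1 (8.66). Chac1 rose by 1.55 ± 0.38 (SE) on the log2 scale in Alcohol relative to Control livers, 2.93-fold (adjusted p = 0.0306). It rose by 1.78 ± 0.38 (SE) in Garlic oil relative to Control livers, 3.44-fold (adjusted p = 0.00401), with no overlap. DADS minus Control was 0.59 ± 0.38 (95% interval -0.20 to 1.39, adjusted p = 0.302). DADS minus Alcohol was -0.96 ± 0.38 (adjusted p = 0.176). Garlic oil minus DADS was 1.19 ± 0.38 (adjusted p = 0.112), with every Garlic oil liver above every DADS liver after normalization but not in raw signal, where DADS 4 lay above Garlic oil 4. Garlic oil minus Alcohol was 0.23 ± 0.38 (95% interval -0.56 to 1.03, adjusted p = 0.791).

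From high to low, the mean Chac1 level was 9.51 ± 0.28 in Garlic oil, 9.28 ± 0.74 in Alcohol, 8.32 ± 0.53 in DADS and 7.73 ± 0.81 in Control livers (SD, n = 4), and no neighbours in this order differed past the threshold. Without the acinar-rich Alcohol 1, Alcohol minus Control was 1.85 (adjusted p = 0.0128). The Alcohol minus Control call was lost without Control 2, Control 3, Control 4, Alcohol 2, Alcohol 3 or Alcohol 4 (adjusted p up to 0.0881). The Garlic oil minus Control call passed with any one array left out (adjusted p 0.00237 to 0.015).

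Asns encodes asparagine synthetase, the classic amino acid response gene, whose human promoter is known to carry an element of the kind searched for above. On its brightest probe, ILMN_2643513, the raw signal was 838.9, 202.2, 697.4 and 296.4 in Garlic oil livers, 1579.1, 1864.8, 2558.3 and 519.5 in DADS livers, 2408.4, 1002.9, 612.3 and 665.4 in Alcohol livers, and 346.9, 290.2, 268.2 and 630.7 in Control livers. The spread within each group was wide: DADS livers were high except DADS 4, and the highest Alcohol liver was the acinar-rich Alcohol 1. Asns rose by 1.87 ± 0.57 (SE) in DADS relative to Control livers, 3.66-fold (adjusted p = 0.0345), with DADS 4 overlapping the Control livers. Alcohol minus Control was 1.57 ± 0.57 (adjusted p = 0.139), and 1.13 (adjusted p = 0.337) without Alcohol 1. Garlic oil minus DADS was -1.75 ± 0.57 (adjusted p = 0.122), and -2.20 (adjusted p = 0.0619) without DADS 4. Garlic oil minus Control was 0.12 ± 0.57 (95% interval -1.08 to 1.33, adjusted p = 0.911).

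The mean Asns level was, from high to low, 10.20 ± 0.97 in DADS, 9.91 ± 1.09 in Alcohol, 8.46 ± 1.05 in Garlic oil and 8.33 ± 0.69 in Control livers (SD, n = 4). Between neighbours, Garlic oil minus Alcohol was -1.45 ± 0.57 (adjusted p = 0.188) and DADS minus Alcohol 0.30 ± 0.57 (adjusted p = 0.836). The DADS minus Control call was lost without Control 1, 2 or 3 or DADS 1, 2 or 3 (adjusted p up to 0.102). A second probe, ILMN_3006123, was detected in 3 Garlic oil, 3 DADS, 4 Alcohol and 1 Control livers. It gave an increase of 1.96 ± 0.59 (SE) in DADS relative to Control livers (adjusted p = 0.0309). The fold was 2.9 with Control livers below the detection limit set to that limit. That probe gave 1.86 ± 0.59 in Alcohol minus Control, with an adjusted p of 0.0946. The remaining probe, ILMN_2636755, was detected on 1 array, Alcohol 1, and was not tested.

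**Figure D3:**
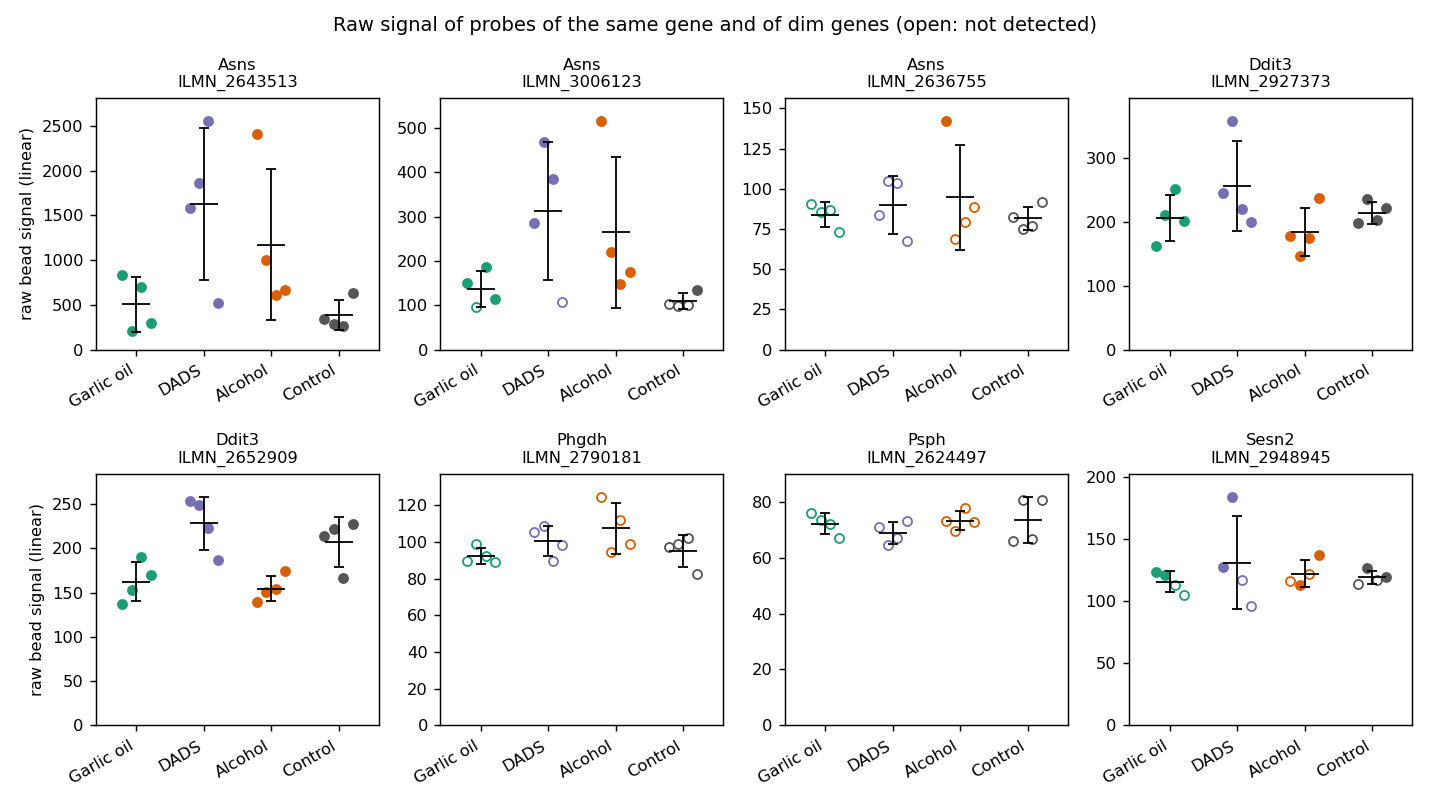
Raw bead signal on a linear axis from 0 (y axis) by group (x axis) for the 3 Asns probes, both Ddit3 probes and the dim probes of Phgdh, Psph and Sesn2. Filled points are detected and open points not detected, and bars are mean and SD (n = 4). On the 2 brighter Asns probes the livers DADS 4 and Alcohol 1 stand at the same extremes of their groups, and Phgdh and Psph were detected on no array.

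Psat1 encodes phosphoserine aminotransferase, the second enzyme of serine synthesis. Its raw signal was 118.6, 91, 97.3 and 101.7 in Garlic oil livers, 329.6, 400.7, 257.6 and 118.4 in DADS livers, 220.9, 120, 140.5 and 138.8 in Alcohol livers, and 112.7, 107.2, 100.8 and 97 in Control livers. It was detected in 1 of 4 Garlic oil, 4 of 4 DADS, 4 of 4 Alcohol and 0 of 4 Control livers, so it entered the test through the groups in which it was high. Psat1 rose in DADS relative to Control livers by 1.96 ± 0.37 (SE), at least 2.87-fold on the normalized scale when the detection limit stands for the Control livers (adjusted p = 0.00226). Psat1 fell in Garlic oil relative to DADS livers by 1.98 ± 0.37 (SE), 3.1-fold by the same measure (adjusted p = 0.0115), within 1 chip. Raw signals, from which background is not subtracted, averaged 102.15 in Garlic oil, 276.58 in DADS and 104.42 in Control livers and so differ by less. After normalization neither pair of groups overlapped, while in raw signal Garlic oil 1 lay just above DADS 4. Alcohol livers also lay above all Control livers and all Garlic oil livers, with Alcohol minus Control at 0.95 ± 0.37 (1.42-fold against the limit, adjusted p = 0.171). Garlic oil minus Alcohol was -0.96 ± 0.37, 1.54-fold against the limit (adjusted p = 0.177), and DADS minus Alcohol was 1.01 ± 0.37 (adjusted p = 0.142).

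The mean Psat1 level was highest in DADS (7.26 ± 0.98, SD, n = 4) and then Alcohol livers (6.24 ± 0.61), and low in both Garlic oil (5.28 ± 0.31) and Control livers (5.29 ± 0.25). Garlic oil and Control livers were at or near background, so their levels could not be compared. Both Psat1 calls passed with any one array left out (adjusted p up to 0.00923 for DADS minus Control and up to 0.0393 for Garlic oil minus DADS). The size of the change depended on the processing: without background correction it was 1.14 in DADS minus Control and -1.15 in Garlic oil minus DADS, and from the authors' deposited table of signals it was 2.54 and -2.63. The Garlic oil minus DADS call was lost when only these 2 groups were fitted (adjusted p = 0.052). Without DADS 4, the lowest DADS liver, DADS minus Alcohol passed as well (1.48, adjusted p = 0.00791), and so did Alcohol minus Control (0.95, adjusted p = 0.0422). Without Alcohol 1, Alcohol minus Control was 0.65 (adjusted p = 0.403). DADS 4 was also the liver with the lowest summed Kupffer cell and macrophage level (2811, against 7217, 4713 and 4445 in DADS 1, DADS 2 and DADS 3). The part of this level in the Psat1 values was not tested.

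The other enzymes of serine synthesis and the stress sensor gene Sesn2 gave little or no signal. Phgdh, the first enzyme, was not well above background on any of 16 arrays, with raw signals of 89.4 to 98.8 in Garlic oil, 89.9 to 108.7 in DADS, 94.4 to 124.9 in Alcohol and 82.6 to 102 in Control livers. Its highest value was in Alcohol 1. Psph, the last enzyme, was also detected on 0 arrays, at 67.1 to 76 in Garlic oil, 64.5 to 73.2 in DADS, 69.5 to 77.9 in Alcohol and 65.9 to 80.8 in Control livers. Sesn2, which encodes a regulator of mTORC1 that senses leucine, was detected in 2 livers of each group on probe ILMN_2948945 and in 0 on probe ILMN_1219984. Its changes lay between -0.11 and 0.10 in the 6 comparisons, each with an SE of 0.21, and the lowest adjusted p was 0.836. Differences of Phgdh and Psph below the detection limit could not be seen on these arrays.

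Asns and Psat1 levels moved together from liver to liver, although Psat1 was detected on 9 of the 16 arrays and lay at background on the others. Over 16 livers their log2 levels had a Pearson r of 0.821 and a Spearman rho of 0.756, as a description of arrays that share groups and chips and with no test. The Pearson r was 0.847 over the 8 arrays of Garlic oil and DADS, 0.869 over the 8 of Alcohol and Control, and 0.674 after subtracting group means. It was 0.804 without Alcohol 1 and 0.759 without the 2 livers farthest from the median of Asns. Of the 28 pairs among the 8 genes this was the highest r. Atf4 and Chac1 had an r of -0.56 (rho -0.585), which was -0.202 on the Garlic oil and DADS chip and -0.719 on the other, and -0.369 without the 2 livers farthest from the median of Atf4.

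**Figure D4:**
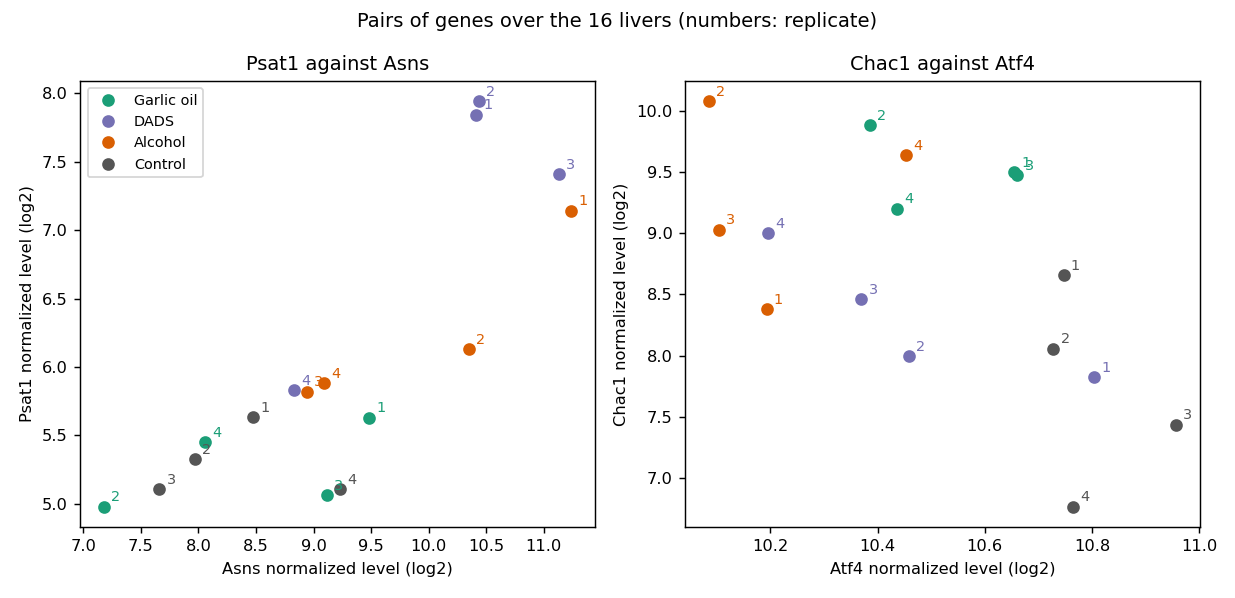
Normalized log2 levels of Psat1 against Asns (left) and of Chac1 against Atf4 (right) in 16 livers, coloured by group and numbered by replicate. On the left, DADS 1 to 3 and Alcohol 1 sit at the upper end (r = 0.821), and DADS 4 sits near Alcohol 3 and 4. On the right, the Control livers have higher Atf4 than all Alcohol livers.

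The 2 genes outside the set whose levels over the 16 livers were most like each tested gene are given as a description. For Atf4 they were Rab30 (Pearson r = 0.838, and 0.516 once group means were subtracted) and Zfp36l1 (0.783), and for Atf5 Tmem82 (0.916) and Fgf21 (0.857). Ddit3 was most like Pfkp (0.809) and Ddx58 (0.786), and Trib3 most like Krt23 (0.873) and Sugp1 (0.861). Chac1 was most like Irf2 (0.818) and Itprip (0.796), with r of 0.585 and 0.318 once group means were subtracted. For the remaining genes named here r was at least 0.697 after that step. Asns was most like Fabp6 (0.847) and Apmap (0.834), Psat1 most like Ly6d (0.924) and Cidec (0.881), and Sesn2 most like Ppcs (0.798) and Lrwd1 (0.701).

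Other genes of the pathway were read from 6 lists. Of 14 tested partners and targets of ATF4, 1 rose and 2 fell in Alcohol relative to Control livers (list median 0.23, all genes -0.006). Among all 8386 tested genes, 1.94% rose and 1.63% fell there. In the same comparison 7 of the 14 had an unadjusted p under 0.05 by limma, beside 1515 of all genes. Ddit4, an inhibitor of mTORC1, rose by 2.59 ± 0.50 (SE, adjusted p = 0.00834). Fgf21, a liver hormone, fell by 1.97 ± 0.50 (adjusted p = 0.0375), and Gadd45a, a stress gene linked to growth arrest, fell by 1.46 ± 0.36 (adjusted p = 0.032). In DADS relative to Alcohol livers, 1.23% of all genes rose and 1.61% fell, and 1541 of 8386 had an unadjusted p under 0.05 by limma. Of the 14 genes, 3 rose and 0 fell there, with 7 at an unadjusted p under 0.05 (median 0.11, all genes 0.016). These were Gadd45a (1.58 ± 0.36, adjusted p = 0.0267), the lipoprotein receptor gene Vldlr (1.51 ± 0.34, adjusted p = 0.0259) and the alanine aminotransferase gene Gpt2 (0.63 ± 0.16, adjusted p = 0.0472). In Garlic oil relative to Alcohol livers 0 of the 14 passed in either direction, where 0.692% of all genes rose and 1.32% fell. An unadjusted p under 0.05 by limma was reached by 2 of the 14, beside 1550 of all 8386 genes. Gadd45a fell by 1.44 ± 0.36 in Garlic oil relative to DADS livers (adjusted p = 0.0472), the single one of the 14 to pass there. In that comparison 0.739% of all genes rose and 1.11% fell. There 8 of the 14 had an unadjusted p under 0.05 by limma, beside 1408 of all 8386 genes.

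Against Control, 3 of these 14 rose and 0 fell in DADS livers, where 8.48% of all genes rose and 7.44% fell. They were Vldlr (2.67 ± 0.34), Nupr1, a stress-induced chromatin protein gene (2.52 ± 0.79), and Gpt2 (0.66 ± 0.16). In Garlic oil relative to Control livers 5 rose and 2 fell, where 8.56% of all genes rose and 9.29% fell. The 4 with the smallest p were Vldlr (2.12 ± 0.34), Ddit4 (2.43 ± 0.50), the ER degradation gene Herpud1 (0.86 ± 0.18) and Gadd45a (-1.32 ± 0.36). Among 6 tested genes of eIF2 kinases, phosphatase subunits and their regulators, Eif2ak2, the kinase PKR, fell in all 3 ethanol groups relative to Control. It fell by 0.61 ± 0.15 in Garlic oil, 0.49 ± 0.15 in DADS and 0.56 ± 0.15 in Alcohol livers (adjusted p = 0.0118, 0.0369 and 0.0472), 3 comparisons that share the Control livers. Of all genes, 9.29%, 7.44% and 1.63% fell in these comparisons, in that order. Impact, which restrains the kinase GCN2, rose relative to Control in Garlic oil (1.17 ± 0.27) and DADS livers (1.17 ± 0.27). Its change in Alcohol minus Control was 0.79 (adjusted p = 0.114). Relative to Alcohol it was 0.38 in Garlic oil (adjusted p = 0.473) and 0.37 in DADS livers (adjusted p = 0.497).

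None of 5 tested amino acid transporters passed in any comparison by limma. An unadjusted p under 0.05 was reached by 1 in Alcohol minus Control, 0 in DADS minus Alcohol and 3 in Garlic oil minus Control. It was reached by 2 in each other comparison. Of all 8386 genes, 1515 reached it in Alcohol minus Control, 1541 in DADS minus Alcohol and 1550 in Garlic oil minus Alcohol. In Garlic oil minus DADS, DADS minus Control and Garlic oil minus Control, 1408, 2597 and 2727 of all genes did. Of 15 tested enzymes of serine, glycine and one-carbon metabolism, 2 rose and 1 fell in Garlic oil relative to Control livers, close to the shares of all genes there (8.56% and 9.29%). The folate enzyme gene Aldh1l1 rose by 0.94 ± 0.24, Cth, which makes cysteine, rose by 0.84 ± 0.26, and Glyctk, the glycerate kinase gene, fell by 0.55 ± 0.13. In the other 5 comparisons 0 of the 15 passed, with 0 to 5 at an unadjusted p under 0.05, beside the counts of all genes given above. Of 14 tested genes of the other branches of the unfolded protein response, 0 passed in Alcohol minus Control, where 1 had an unadjusted p under 0.05 (median -0.19). In DADS relative to Control livers 5 of these 14 fell and 0 rose (median -0.20, all genes -0.001), where 7.44% of all genes fell and 8.48% rose. They were the ER chaperone and folding genes Creld2 (-1.43 ± 0.27), Pdia3 (-1.19 ± 0.24) and Pdia6 (-0.82 ± 0.25), and the ER degradation genes Edem1 (-0.77 ± 0.25) and Syvn1 (-0.43 ± 0.14), the last outside the naming rule and named after its values were seen. In Garlic oil relative to Control livers Syvn1 alone of the 14 passed (-0.55 ± 0.14), where 9.29% of all genes fell. The list median was lower there (-0.30, all genes -0.044) than in DADS minus Control. In both comparisons 6 of the 14 had an unadjusted p under 0.05 by limma, beside 2597 (DADS) and 2727 (Garlic oil) of all 8386 genes. Of 14 tested tRNA synthetases, Wars fell relative to Alcohol in Garlic oil (-0.54 ± 0.12, adjusted p = 0.0272) and DADS livers (-0.52 ± 0.12, adjusted p = 0.0244), and Vars fell in Garlic oil relative to DADS livers (-0.61 ± 0.13, adjusted p = 0.0253). Of all genes, 1.32%, 1.61% and 1.11% fell in these comparisons, in that order. In DADS relative to Control livers, Gars, Lars and Rars rose by 0.36 to 0.67 and Wars fell by 0.41. In Garlic oil relative to Control livers, Rars rose by 0.81 and Wars fell by 0.43.

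**Figure D5:**
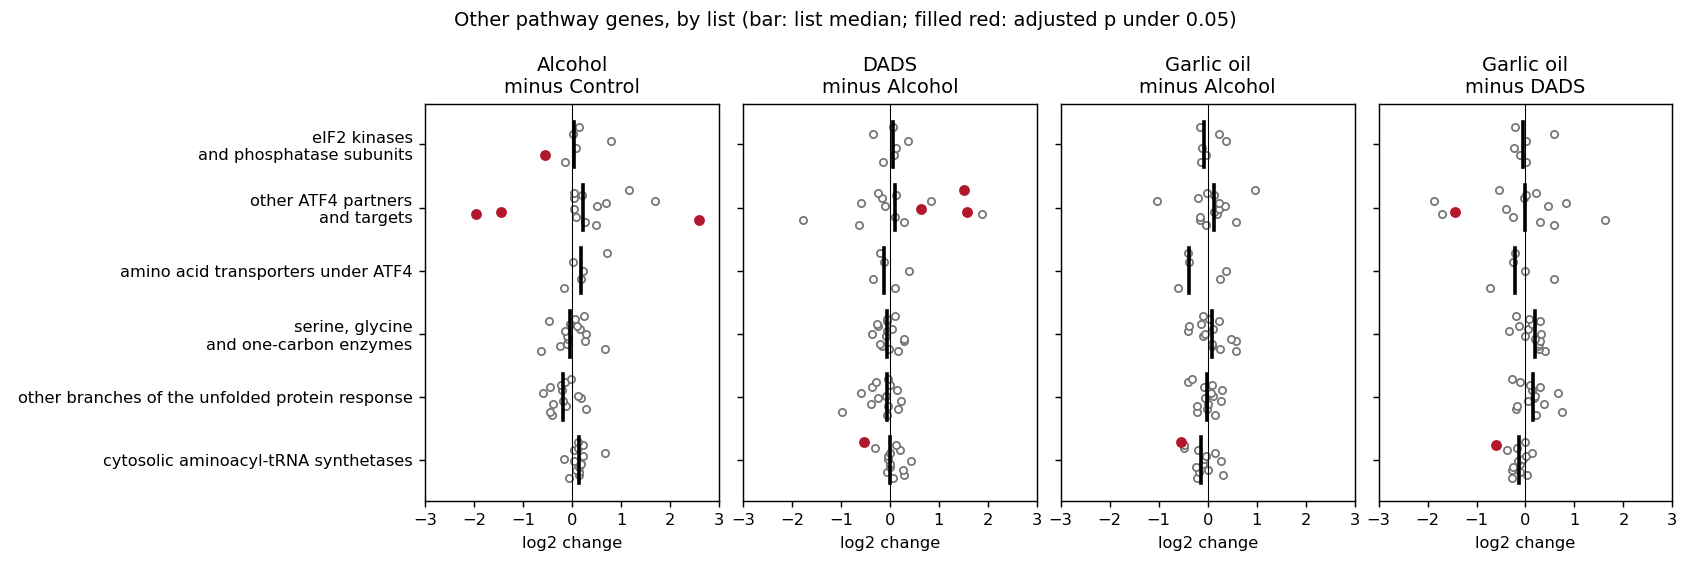
Log2 change (x axis) of each tested gene of the 6 further lists (y axis) in 4 comparisons, with a bar at the list median and filled red points at an adjusted p under 0.05. Among the partners and targets of ATF4, 1 gene rose and 2 fell in Alcohol minus Control, and 3 rose in DADS minus Alcohol.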

How the data were processed

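Liver RNA of 16 mice was measured on Illumina 1-colour BeadChips. Per the file headers, each deposited array file gives an intensity (average bead brightness, linear and not normalized) and a detection p-value for each of 25697 probes. The authors' deposited intensity table of all samples is normalized by a method not given in the sources used here. The submitters' processing notes name GenomeStudio, lumi and limma without versions. Each of its columns ranked the probes as its own array did (Spearman correlation 1). Signals were background-corrected, quantile-normalized and brought to log2 with neqc of limma 3.58.1 (R 4.3.3, offset 16). A filter kept 11938 probes detected (p under 0.05) by 4 or more arrays, and each of 8386 genes was represented by its brightest probe on average. Gene symbols came from the platform annotation. One limma fit of 4 group means (12 residual degrees of freedom) gave two-sided moderated tests with Benjamini-Hochberg adjustment over 8386 genes, called under 0.05. The limma step alone was tested on simulated data with independent normal errors and no chip effect. Those data held no detection floor and no array like Alcohol 1, so these conditions were not tested. For a fold against a group below the detection limit, livers below that limit were set to it. Such a fold is a lower bound with regard to the limit only and carries no sampling error. The number of arrays limits precision (median SE 0.162). The genes, lists and markers were chosen with earlier results of these data known. Genes named are the 10 members, up to 4 called genes of each list per comparison by smallest p, and the 2 genes most like each member. Alternatives covered background correction, scaling, the authors' table, filters, probes taken singly, array weights, 2-group fits, a replicate block and leaving out arrays.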

Additional observations from a re-analysis of the deposited data

Results flagged for a closer look

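Among 32 gene and group combinations, 3 held a liver far from the other 3 of its group on the log2 scale, where chance alone marks about 1 in 20 groups. Ddit3 was 6.44 in Garlic oil 1, against 7.26 to 7.3 in the other Garlic oil livers. Trib3 was 8.15 in Garlic oil 2, with the others at 7.92 to 7.93. Atf4 was 10.96 in Control 3, with the others at 10.73 to 10.76. Asns probe ILMN_2636755, too dim to be tested, was detected on the array of Alcohol 1 alone, at a raw signal of 142.3 against 67.6 to 104.9 on the other arrays. That liver also held the acinar RNA, and the part of it in this signal was not tested.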

How the results depend on the processing

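No change reversed sign with a call under any alternative. Without a filter on dim probes, 1 gene of the set was called in each of Alcohol minus Control (Chac1 lost, adjusted p 0.0814), DADS minus Control (Asns lost, 0.0901) and Garlic oil minus Control (Atf5 lost, 0.0667). Fitting only the 2 groups compared gave 1 call in Alcohol minus Control (Chac1 lost, 0.0598) and 0 in Garlic oil minus DADS (Psat1 lost, adjusted p 0.052). With array weights or a replicate block, DADS minus Alcohol had 1 call, Trib3 (adjusted p 0.0437 and 0.0297). Whether the replicate numbers pair the livers was not tested. The 24 same-number correlations ran from -0.367 to 0.404, with 7 over 0.1, and no different-number correlations were set beside them. The block moved no other count of calls in the set. With one array left out, the calls ranged from 0 to 3 in Alcohol minus Control, 0 to 1 in DADS minus Alcohol, 1 to 2 in DADS minus Control, 1 to 2 in Garlic oil minus Control and 1 to 2 in Garlic oil minus DADS, and were 0 in Garlic oil minus Alcohol. The cause of these shifts was not tested. Over all genes, calls in Alcohol minus Control went to 669 with array weights against 300. Calls fell to 63 (against 238), 26 (against 169) and 39 (against 155) in DADS minus Alcohol, Garlic oil minus Alcohol and Garlic oil minus DADS with 2 groups, and to 136 in DADS minus Alcohol without a filter. Garlic oil minus Alcohol had 83, 96 and 112 calls with the authors' deposited table, array weights and the block. Scaling to the 75th percentile moved the share of calls that were higher to 39.7% (from 54.3%) in Alcohol minus Control, 49.6% (from 34.3%) in Garlic oil minus Alcohol, 50.4% (from 40%) in Garlic oil minus DADS and 41.3% (from 53.3%) in DADS minus Control. With 4 arrays a group and dim signals for Sesn2, Psat1, Phgdh and Psph, small differences in these genes could not be seen.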
